A study of Mus musculus with 8 samples.

Results

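The 8 genes described here encode proteins that the choroid plexus secretes into the cerebrospinal fluid or uses to move solutes, water and ions: Ttr, Enpp2, Folr1, Clic6, Aqp1, Igf2, Igfbp2 and Ptgds. They were chosen by symbol, as the rows of a table of 22430 genes whose Ensembl identifiers map to these names; the choice of symbols was made with earlier results of these data known. The table holds raw read counts from ONT direct RNA sequencing, in which native RNA molecules are read in a nanopore, of a whole brain hemisphere from each of 4 young adult (6 months, 6m) and 4 aged (24 months, 24m) mice. All 8 animals were males of the inbred strain C57Bl/6JRj, with 1 library per mouse. The comparison of the ages asks whether the mRNAs of this tissue differ in the aged brain, and the 8 libraries also show whether these genes vary together. Because the choroid plexus is a small part of a hemisphere, and bulk RNA was read, fewer epithelial cells in a sample and less RNA per cell cannot be told apart.

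The choroid plexus is a sheet of secretory epithelium on a vascular stroma inside the brain ventricles. It makes most of the cerebrospinal fluid by moving ions, with water following, and it releases carrier proteins, growth factors and vitamins into that fluid. Several of these genes are not restricted to it: Ptgds is also strongly expressed by leptomeningeal fibroblasts and oligodendrocytes, Enpp2 by oligodendrocytes, and Igf2 and Igfbp2 by the meninges.

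Counts on genes added up to 573152 to 843706 per 6m library and to 660398 to 1255424 per 24m library, so that 3 counts, the number that a count of 0 still allows, correspond to 2.30 to 5.42 CPM (read counts relative to the library total, adjusted by edgeR's TMM factor). With a mean count over 5 as the filter, 9375 genes and 5 of the 8 members (Ttr, Ptgds, Enpp2, Igfbp2 and Folr1) entered the comparison of 24m with 6m by the quasi-likelihood test of edgeR, and 3 (Clic6, Aqp1 and Igf2) were too low. A gene was called changed if its Benjamini-Hochberg adjusted p (padj) was 0.05 or less and its log2FC, 24m minus 6m, reached 0.58 in either direction. Markers of the epithelium were present at low counts: over all 8 libraries Kcnj13 had 64 counts, Kl 24, Otx2 18 and Kcne2 14, and Tmem72 had none. Ttr, Enpp2 and Ptgds share exon bases with annotated antisense genes (Gm16090, Gm26684 and Gm74786), from which their reads cannot be told apart if strand was not used in counting.

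The bases before the canonical transcription starts of Enpp2 and Folr1 are shown because these members had the most negative estimates relative to their error. A short stretch before Ptgds is shown because it held the only core outside Ttr of those searched. Other annotated transcripts of Enpp2 and Ptgds start further upstream, so the windows of both lie inside the gene. The window of Ptgds also holds annotated exon bases of Ptgds. The windows were read from GRCm39 at the canonical GENCODE transcripts, 5′ to 3′ on the strand of the gene, and capitals mark a match to TAATCC (the OTX2 core), TGTTTAC (forkhead) or GTTGCC (RFX) on either strand.
Enpp2, chr15:54784107-54784356, minus strand: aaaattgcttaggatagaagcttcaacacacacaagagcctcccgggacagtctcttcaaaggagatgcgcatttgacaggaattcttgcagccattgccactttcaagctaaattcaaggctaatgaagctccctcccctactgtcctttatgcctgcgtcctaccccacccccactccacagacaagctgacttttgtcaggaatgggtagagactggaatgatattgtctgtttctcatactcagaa
Folr1, chr7:101520015-101520264, minus strand: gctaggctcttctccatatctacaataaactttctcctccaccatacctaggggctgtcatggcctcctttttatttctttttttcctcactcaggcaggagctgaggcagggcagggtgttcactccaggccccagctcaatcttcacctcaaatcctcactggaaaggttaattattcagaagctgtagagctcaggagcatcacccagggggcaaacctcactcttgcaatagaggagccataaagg
Ptgds, chr2:25360856-25360885, minus strand: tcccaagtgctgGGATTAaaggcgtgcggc

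Of the 8 windows of 250 bases, the one of Ptgds held the OTX2 core, 59 to 54 bases before the start on the other strand, the one of Ttr held the RFX core, 49 to 44 bases before the start, and the other 6 held none of the 3 cores. Among 22281 promoters of the same length, 6.99% held the OTX2 core, 2.73% the forkhead core and 9.49% the RFX core. The 18 bases centred on the Ptgds match also occurred in the windows of other genes, 46 promoters in all, or 2.95% of those with this core. These matches describe letters in 1 window per gene and say nothing of binding.

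No tested member passed both thresholds: 0 of 5 were called changed, beside 14.5% of all tested genes (10.3% higher and 4.17% lower at 24m). At an unadjusted p under 0.05, edgeR counted 3 of the 5 (Enpp2, Folr1 and Igfbp2), beside 34.3% of all tested genes. By padj alone 1 of the 5 passed, Enpp2, which was lower at 24m, beside 21.7% of all genes in either direction and 9.42% that were lower. DESeq2, whether on raw counts or after quantile normalization, also called 0 of the 5. All 5 log2FC were negative, with a median of -0.36 beside -0.003 over all tested genes, but the libraries of the ages overlapped for each of them, whereas they did not overlap for 21.1% of all tested genes.

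**Figure D1:**
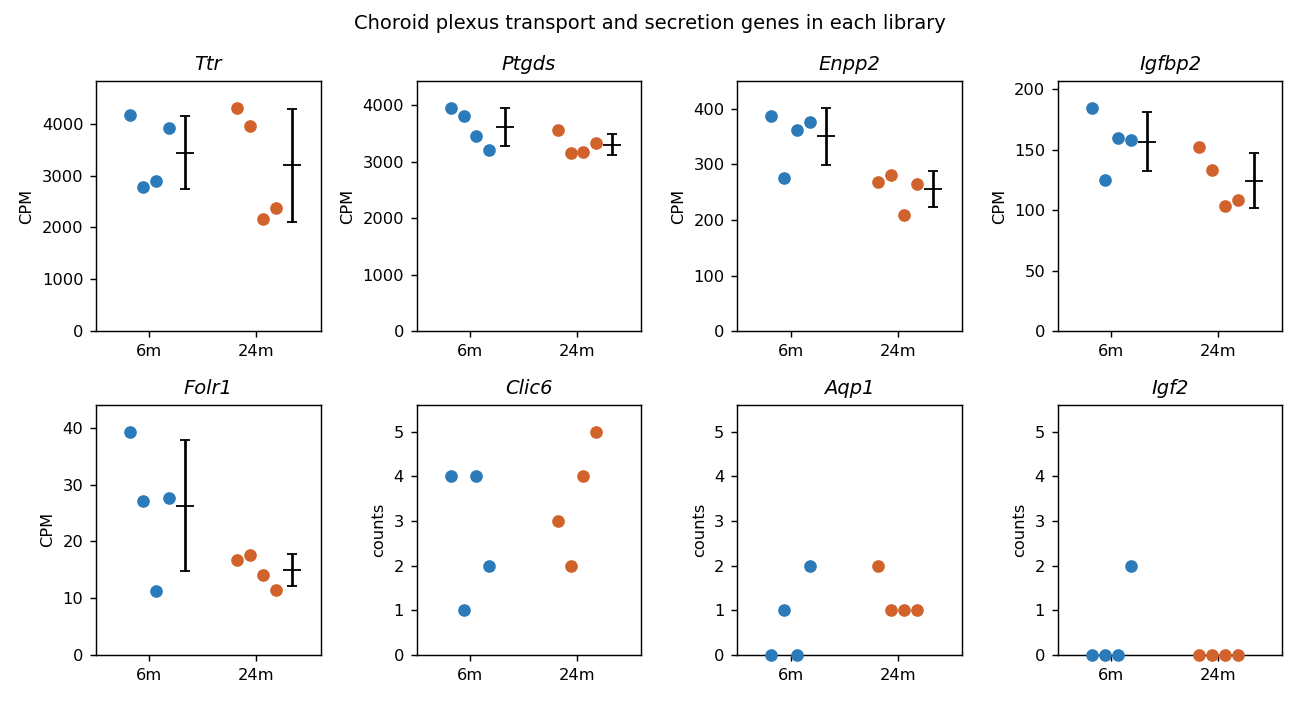
Level of each gene in each library, in CPM for the 5 tested members and in raw counts for Clic6, Aqp1 and Igf2, with points for libraries (replicates 1 to 4 from left to right) and, for the tested members, the mean and SD of each age (n = 4). The ages overlap in every panel; Ttr spans 2156 to 4304 CPM, and no library has more than 5 counts of Clic6 or 2 of Aqp1 and Igf2.

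Ttr encodes transthyretin, the main protein that the choroid plexus secretes, which carries thyroid hormone and, with retinol-binding protein, retinol. The gene lies on chromosome 18 (GRCm39, 20797253 to 20807467, plus strand). Its counts were 3380, 1538, 2321 and 3118 in 6m replicates 1 to 4 and 2824, 3811, 1685 and 3103 in 24m replicates 1 to 4, which place it above 99.9% of the genes of the table by mean count. On the CPM scale the 6m libraries held 4160, 2781, 2889 and 3915, and the 24m libraries 4304, 3962, 2156 and 2380. Each age thus had a pair of libraries at or above 3915 CPM and a pair at or below 2889 CPM, and the spread within an age was wider than the difference between the ages. The 6m mean was 3436 ± 703 CPM and the 24m mean 3201 ± 1090 CPM (SD, n = 4), with a log2FC of -0.105 (95% interval -0.44 to 0.23; edgeR padj = 0.69). The sign turned positive when 6m replicate 1, 24m replicate 3 or 24m replicate 4 was left out, and with DESeq2 on quantile-normalized counts. The within-age SD of log2 CPM was 0.415, larger than that of all 28 genes with a mean count within 1.5 times that of Ttr.

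The whole epithelium list of 46 markers added up to 1338, 1400, 1411 and 1263 CPM in 6m replicates 1 to 4 and to 1354, 1538, 1432 and 1656 CPM in 24m replicates 1 to 4. This sum did not follow Ttr: 3 of the 4 libraries with the most Ttr, 6m replicates 1 and 4 and 24m replicate 1, had its 3 lowest values. Much of the sum was 1 gene that neurons also express, Atp1b1. Its mean was 594.8 CPM at 6m and 808.3 CPM at 24m, where the whole list had means of 1353 and 1495 CPM. The 43 listed markers that remain after 3 abundant genes of wider expression (Atp1b1, Rdh5 and Gsta4, set aside after their values were seen) added up to 499.7, 374.3, 415.7 and 501.0 CPM in 6m replicates 1 to 4 and to 446.6, 435.6, 366.0 and 347.5 CPM in 24m replicates 1 to 4. The same 4 libraries, 6m replicates 1 and 4 and 24m replicates 1 and 2, were highest in Ttr and in this trimmed sum, so the likeness depends on the trimming and is a description. The ependymal list, markers of the ciliated cells that line the ventricles, was highest in 3 of these 4, at 167.4, 164.5 and 149.4 CPM, while 24m replicate 2 held 112.3 CPM and the remaining libraries 110.5 to 127 CPM. The part that the amount of ventricular tissue in a sample has in the level of Ttr was not tested.

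Ptgds encodes lipocalin-type prostaglandin D2 synthase, an abundant protein of the cerebrospinal fluid that makes prostaglandin D2 and also carries small lipophilic molecules. The gene lies on chromosome 2 (25352795 to 25362601, minus strand). Its 6m libraries held 3956, 3815, 3456 and 3216 CPM, and its 24m libraries 3562, 3157, 3170 and 3328 CPM. The ages overlapped within a narrow range, 1.25-fold from the lowest to the highest library, although Ptgds and Ttr were close in counts. The means were 3611 ± 337 CPM and 3304 ± 189 CPM (SD, n = 4), the log2FC was -0.13 (95% interval -0.31 to 0.06; edgeR padj = 0.33), and the sign turned with DESeq2 on quantile-normalized counts. Its within-age SD of log2 CPM, 0.11, exceeded that of 36% of 25 genes with a similar mean count.

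Igfbp2 encodes a secreted binding protein of the insulin-like growth factors. It lies on chromosome 1 (72863606 to 72891634, plus strand). The 6m libraries held 150, 69, 128 and 126 counts, or 184.6, 124.8, 159.3 and 158.2 CPM, and the 24m libraries 100, 128, 81 and 141 counts, or 152.4, 133.1, 103.7 and 108.2 CPM. The 6m replicate 1 was the highest library, 24m replicates 3 and 4 were the lowest, and the ages overlapped. The 6m mean was 157 ± 24.6 CPM and the 24m mean 124 ± 22.8 CPM (SD, n = 4), with a log2FC of -0.36 (95% interval -0.65 to -0.07; edgeR padj = 0.070). Without 6m replicate 2 the log2FC was -0.43 with padj = 0.043, and without 24m replicate 1 it was -0.45 with padj = 0.012, both under the minimum of 0.58.

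Igf2 encodes insulin-like growth factor 2, a ligand that the choroid plexus and meninges release. It lies on chromosome 7 (142204503 to 142220694, minus strand). A single library, 6m replicate 4, held 2 counts of it, and the other 7 held none, so every library was at or under the limit of 3 counts and no fold is given. Igf2 shares exon bases, and at least 50 percent of its canonical transcript at an identity of 95 percent or more, with the annotated gene Gm49394 on the same strand, so its count is uncertain.

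Enpp2 encodes autotaxin, a secreted lysophospholipase D that makes lysophosphatidic acid. It lies on chromosome 15 (54701324 to 54816288, minus strand). The 6m libraries held 315, 152, 291 and 300 counts, or 387.7, 274.8, 362.2 and 376.7 CPM. The 24m libraries held 176, 271, 163 and 346 counts, or 268.3, 281.7, 208.6 and 265.4 CPM. The ages were separate but for 6m replicate 2, the shallowest library, which lay below 24m replicate 2. The 6m mean was 350 ± 51.4 CPM and the 24m mean 256 ± 32.4 CPM (SD, n = 4), and Enpp2 was lower at 24m with a log2FC of -0.46 (SE 0.11, 95% interval -0.69 to -0.22; edgeR padj = 0.0055), which passed padj but not the fold minimum. Its padj stayed at or under 0.05 in all 16 alternatives, from 0.0016 to 0.040, with a log2FC of -0.54 to -0.35. Of these, the threshold of padj alone reuses the main fit and could not differ from it.

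Folr1 encodes folate receptor alpha, which carries folate through the choroid plexus epithelium into the cerebrospinal fluid. It lies on chromosome 7 (101507537 to 101520014, minus strand). Its counts were 32, 15, 9 and 22 in the 6m libraries and 11, 17, 11 and 15 in the 24m libraries, or 39.4, 27.1, 11.2 and 27.6 CPM against 16.8, 17.7, 14.1 and 11.5 CPM. Of the 6m libraries 3 lay above all 24m libraries, while 6m replicate 3 was the lowest of all 8. The means were 26.3 ± 11.6 CPM and 15.0 ± 2.79 CPM (SD, n = 4), and the log2FC of -0.835 (SE 0.31, 95% interval -1.47 to -0.20) had an edgeR padj of 0.054. Its side of the threshold depended on single libraries: without 6m replicate 3 the log2FC was -1.10 with padj = 0.010, without 24m replicate 1 it was -0.88 with padj = 0.046, and without 6m replicate 1 it was -0.54 with padj = 0.31. With no filter on low counts, its log2FC was -0.82 with padj = 0.035.

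Clic6, an intracellular chloride channel family member typical of this epithelium, lies on chromosome 16 (92282624 to 92338739, plus strand). It had 4, 1, 4 and 2 counts in the 6m libraries and 3, 2, 4 and 5 in the 24m libraries. Pooled over each age these are 11 and 14 counts, a rate ratio of 24m over 6m of 1.10, with an exact 95% Poisson interval of 0.46 to 2.67 that covers counting error only. Aqp1, the water channel of the apical membrane, lies on chromosome 6 (55313068 to 55325540, plus strand), and had 0, 1, 0 and 2 counts at 6m and 2, 1, 1 and 1 at 24m. Every library was under the limit of 3 counts for Aqp1, so no fold is given, and a difference between the ages was not detectable at this depth for either channel.

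**Figure D2:**
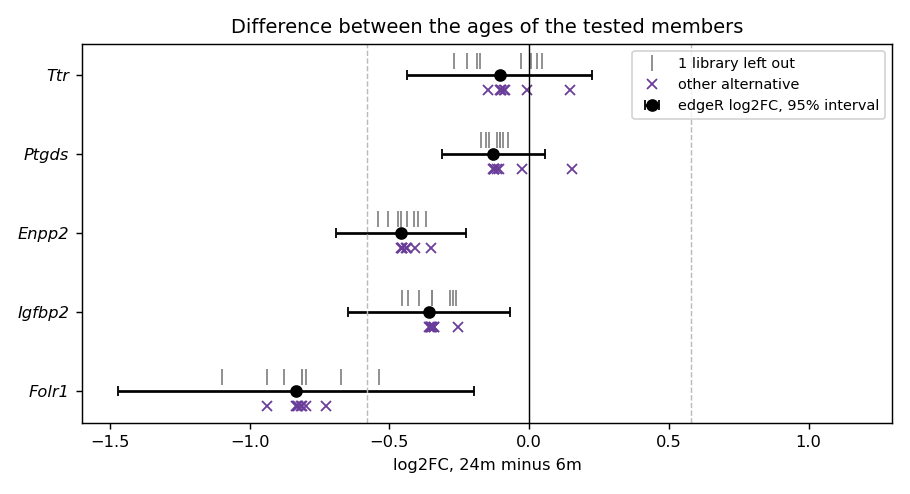
log2FC (24m minus 6m, x axis) of the 5 tested members, as black points with 95% intervals from edgeR, grey ticks for fits without 1 library and purple crosses for the other alternatives; dashed lines mark the fold minimum of 0.58. The intervals of Enpp2, Igfbp2 and Folr1 lie below 0, only the Folr1 point lies beyond the fold minimum, and the alternatives of Ttr fall on both sides of 0.

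Per kilobase of canonical transcript, Ttr was at a mean of 2611 CPM per kb at 6m and 2432 at 24m, and Ptgds at 1940 and 1776 CPM per kb. In direct RNA sequencing a read stands for a molecule rather than for a stretch of it, and in CPM without the length Ptgds lay above Ttr and Enpp2 above Igfbp2, so no order is drawn within these pairs. Igfbp2 was at 119 and 94.2, Enpp2 at 73.4 and 53.6, and Folr1 at 19.9 and 11.3 CPM per kb. Clic6, at 0.81 and 0.89, and Aqp1, at 0.36 and 0.52 CPM per kb, lay far below, and the level of Igf2 was 0.17 CPM per kb at 6m with no count at 24m.

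Over the 8 libraries, the 10 pairs of tested members had a Pearson r of log2 CPM (prior count 2) of 0.26 to 0.88, with a median of 0.555, and all 10 were positive. Of the 28 pairs of all 8 members, 1 had a padj of at most 0.05 by Pearson r and 0 by Spearman rho, with exact permutation tests adjusted over the 28 pairs. These r share the library sizes used for scaling, and in Clic6, Aqp1 and Igf2 they rest on counts of 0 to 5, so the pairs of these genes are not described further.

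Enpp2 and Igfbp2 were the pair that passed, with r = 0.88 (two-sided exact permutation p = 0.0014, padj = 0.040). Their rank order over libraries was also close, with rho = 0.905 (exact permutation p = 0.0046, padj = 0.13). Without 6m replicates 1 and 4, the libraries farthest from the median of Enpp2, r was 0.79 (exact permutation p = 0.028, padj = 0.67). With each age centred on its own mean, r was 0.80 (p = 0.031, exact permutation within ages, padj = 0.29). In these 2 alternatives a lone pair could not pass, since the smallest possible padj was 0.067 and 0.097, and the pair's r stayed at or above 0.79.

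Ttr and Igfbp2 had r = 0.81 (exact permutation p = 0.024, padj = 0.33) and rho = 0.71 (exact permutation p = 0.058, padj = 0.81). Without 24m replicates 3 and 4, where both genes were lowest, r was 0.45. These libraries were the farthest from the median of Ttr. Leaving them out narrows its range, so the lower r cannot show whether the relation rests on them. With each age centred, r was 0.89 (p = 0.0069, exact permutation within ages, padj = 0.15). Ttr and Enpp2 had r = 0.59 (exact permutation p = 0.12, padj = 0.74), which was 0.06 without the same 2 libraries and 0.70 with each age centred (p = 0.010, exact permutation within ages, padj = 0.15). Ttr and Ptgds, the most abundant members, had r = 0.26 (exact permutation p = 0.53, padj = 0.88), and -0.18 without these 2 libraries.

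**Figure D3:**
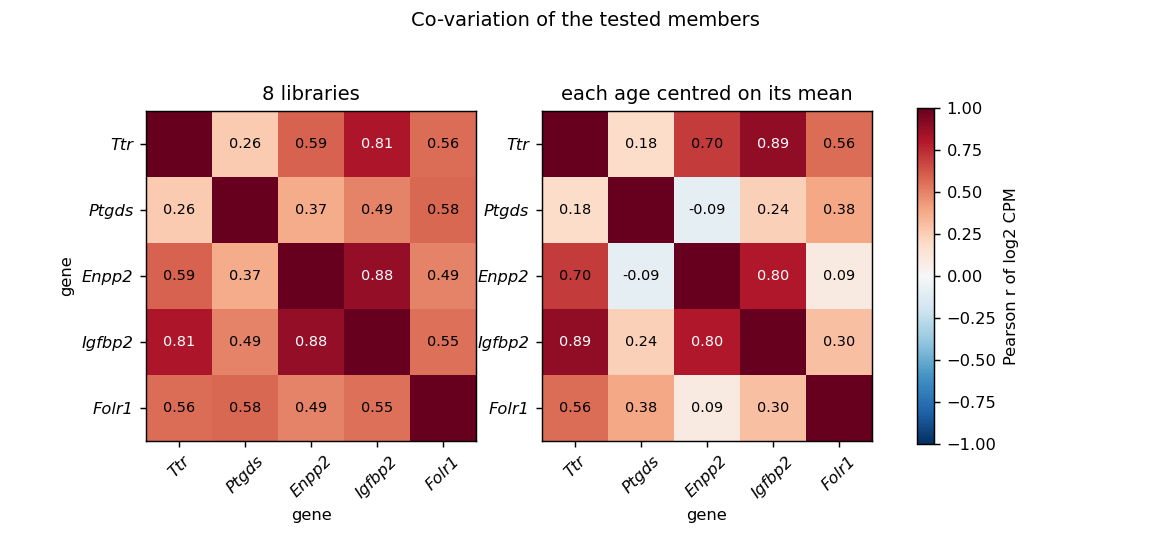
Pearson r of log2 CPM between the 5 tested members over the 8 libraries (left) and with each age centred on its mean (right), on a colour scale from -1 to 1. Ttr, Enpp2 and Igfbp2 have r of 0.59 to 0.88 on the left and 0.70 to 0.89 on the right, while Enpp2 and Ptgds go from 0.37 to -0.09.

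**Figure D4:**
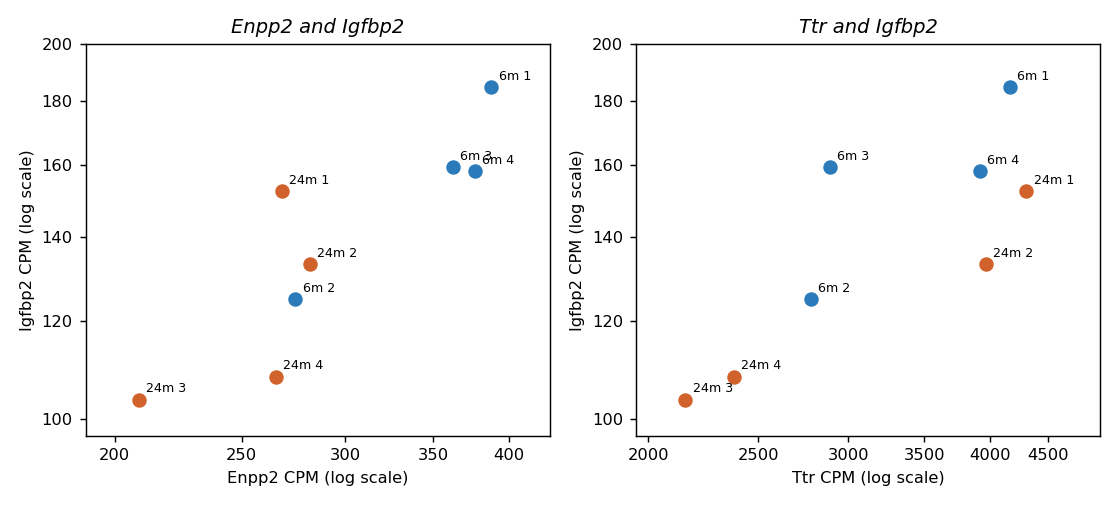
Igfbp2 against Enpp2 (left) and against Ttr (right) in CPM on log axes, 1 point per library, blue for 6m and orange for 24m, with the replicate number beside each point. The 24m replicate 3 is lowest in all 3 genes, and 6m replicate 1 is highest in Enpp2 and Igfbp2.

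Relative to Ttr in the same library, a comparison that needs no library size, 0 of 7 members passed after adjustment (exact permutation over 70 assignments, two-sided, smallest possible p = 0.029). At least 4 of the 7 would have had to reach that smallest p together for any to pass, and Clic6, Aqp1 and Igf2 had 0 to 5 counts, so this count is nearly fixed by the design. Enpp2 had a mean log2 ratio to Ttr of -3.28 ± 0.195 at 6m and -3.585 ± 0.39 at 24m (SD, n = 4), a difference of -0.30 (exact permutation p = 0.26, padj = 0.50). The ratio of Folr1 differed by -0.54 (exact permutation p = 0.17, padj = 0.50), that of Igfbp2 by -0.19 (exact permutation p = 0.29, padj = 0.50) and that of Ptgds by 0.02 (exact permutation p = 0.89, padj = 0.89). The wide spread of Ttr entered each ratio: over single libraries the log2 ratio of Enpp2 ran from -4.00 in 24m replicate 1, high in Ttr, to -2.99 in 6m replicate 3, low in Ttr. In the whole epithelium list Atp1b1 held the most counts, and it had a log2FC of 0.455. Against this whole list in place of Ttr, the difference was -0.59 for Enpp2 (exact permutation p = 0.057, padj = 0.23) and -0.29 for Ttr (exact permutation p = 0.40, padj = 0.53). Against the 43 markers of the trimmed list, it was -0.285 for Enpp2 (exact permutation p = 0.086, padj = 0.46) and 0.02 for Ttr (exact permutation p = 0.94, padj = 0.94).

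The genes whose pattern over the 8 libraries was most like Ttr, among 5163 others with a mean count of at least 20, were Zfp335 (r = 0.915), Has3 (0.90), Tmem14c (0.90), Tmed3, Anapc11, Cic, Gapdhs, Tst, Tbc1d10a and Dgat1 (0.88). With each age centred they were Ptdss2 (0.98), Sirt3, Supt6, Tubg1, Paqr7, Has3, Tmed3, Dgat1, Pnck and Eif3d (0.93), and 3 genes, Has3, Tmed3 and Dgat1, stood in both sets. Of the other members only Enpp2, Igfbp2 and Ptgds reached this mean count, and none of them was in either set. Igfbp2 ranked 39 of 5163 over all libraries and 34 with each age centred, Enpp2 434 and 370, and Ptgds 1720 and 2161. With 8 libraries, r over all these genes ran from -0.925 to 0.915 around a median of 0.05, and these likenesses are given as a description.

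The wider epithelium list, 46 genes of the choroid plexus of which 22 were tested, had 0 higher and 1 lower, with a median log2FC of -0.12 beside -0.003 over all tested genes. The gene that fell was Slc12a2, the sodium, potassium and chloride cotransporter of the apical membrane, with 15.5 ± 8.05 CPM in the young and 5.38 ± 1.58 CPM in the aged libraries (SD, n = 4), with a log2FC of -1.51 (edgeR padj = 0.012). Its counts were 17, 2, 16 and 14 at 6m and 3, 4, 4 and 10 at 24m, so 6m replicate 2 overlapped the aged libraries. It was not tested under edgeR's filterByExpr, where the list had 0 changed genes, and the list had 4 without 24m replicate 1 and 2 without 6m replicate 4 or 24m replicate 4. Among the abundant genes of the list, Atp1b1, a beta subunit of the sodium pump that neurons also express, had a log2FC of 0.455 (padj = 0.015), Rdh5 of -0.08 and Gsta4 of -0.17, none past both thresholds.

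**Figure D5:**
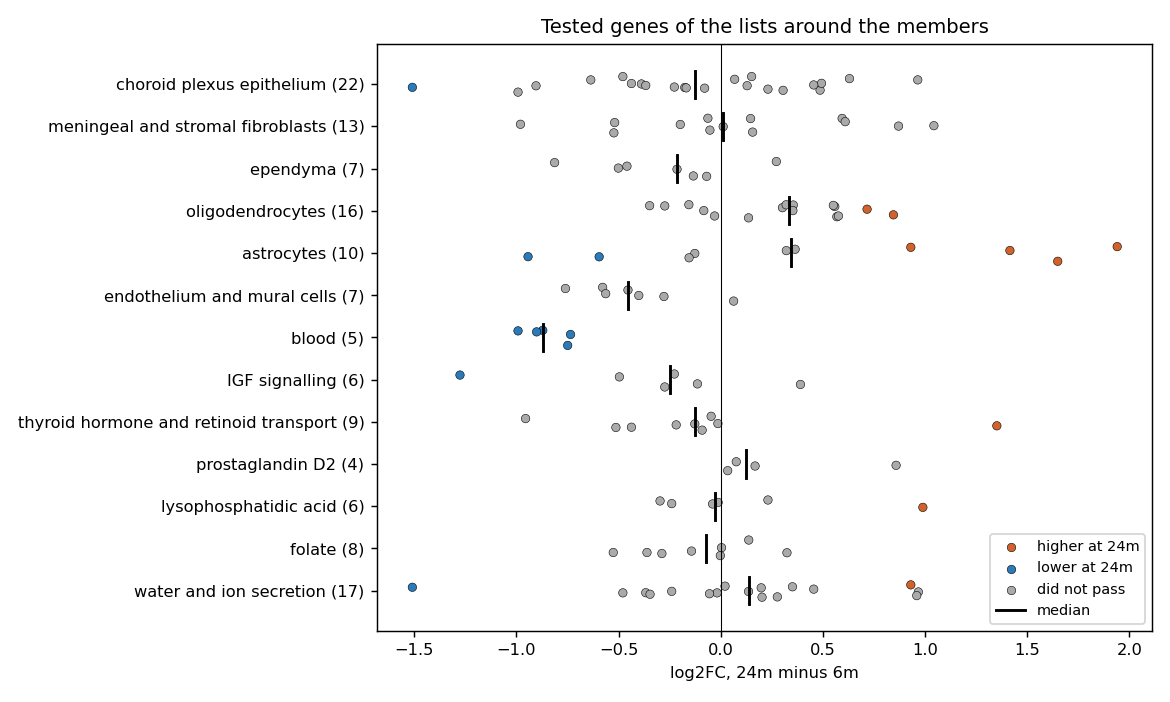
log2FC (24m minus 6m, x axis) of the tested genes of each list (number tested in brackets), 1 point per gene, orange where higher and blue where lower at 24m by both thresholds, with a black bar at the median of the list. The epithelium list has 1 changed gene of 22 and a median of -0.12, and all 5 blood genes lie on the lower side.

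The pathway lists of the members held 4 to 17 tested genes each, too few to set their shares of changed genes apart from the 14.5% of all tested genes. For thyroid hormone and retinoid transport, with Ttr as its carrier, 9 listed genes were tested, 1 was higher and 0 lower, with a median log2FC of -0.13. The one that rose was Hr, a nuclear corepressor of the thyroid hormone receptor, from 8.83 to 24.1 CPM (log2FC 1.35, edgeR padj = 0.0046). Thra, the receptor that is abundant in brain, had a log2FC of -0.05 (padj = 0.74) and Crym, a thyroid hormone binding protein, of -0.13.

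For IGF signalling, around Igf2 and Igfbp2, 6 genes were tested, 0 were higher and 1 lower, with a median of -0.25. It was Irs2, an adaptor of the insulin and IGF receptors, from 17.6 to 7.63 CPM (log2FC -1.28, edgeR padj = 0.014). Irs2 was no longer called without 6m replicate 1 or 24m replicate 4, and was not tested under filterByExpr, and in these cases the list held 0 changed genes. The other abundant binding proteins had log2FC of -0.23 (Igfbp6), 0.39 (Igfbp4) and -0.27 (Igfbp7), none past the thresholds.

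For lysophosphatidic acid, the product of Enpp2, 6 genes were tested, with 1 higher and 0 lower and a median of -0.03. Plpp3, a phosphatase that breaks down this lipid, rose from 41.0 to 82.4 CPM (log2FC 0.99, edgeR padj = 0.00021), and its libraries did not overlap. The others included Pla2g7 (log2FC -0.30, padj = 0.071), Enpp5 (0.23) and Plpp1 (-0.01). Of the prostaglandin D2 list, with Ptgds, 4 genes were tested and 0 changed (median 0.12), among them Cbr1 at 0.17, Ptges2 at 0.03 and Ptges3 at 0.08.

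Of the folate list, with Folr1, 8 genes were tested and 0 changed (median -0.07), with 1 changed without 24m replicate 1. Aldh1l1, a folate enzyme of astrocytes, had a log2FC of -0.36 (edgeR padj = 0.062), Mthfd1 of -0.29 and Slc46a1, the proton-coupled folate transporter, of 0.004. Of the water and ion secretion list, with Aqp1 and Clic6, 17 were tested, with 1 higher and 1 lower and a median of 0.14. The lower gene was Slc12a2, and the higher one Atp1b2, a sodium pump subunit of astrocytes, from 171.5 to 328.5 CPM (log2FC 0.93, edgeR padj = 7.85e-06). Car2, a carbonic anhydrase, had a log2FC of 0.14. Without 24m replicate 1, 4 genes of this list were called in place of 2.

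Markers of neighbouring cells moved with age to different extents. All 5 tested blood genes were lower at 24m, with a summed level of 6090 to 10030 CPM at 6m and 3350 to 6283 CPM at 24m, and Hbb-bt had a log2FC of -0.90 (edgeR padj = 0.00012). Hba-a1 (-0.75) and Hba-a2 (-0.735) are near-identical copies whose reads may have been split. Hbb-bs had -0.87 and Alas2, the haem synthesis enzyme of red cells, -0.99. With DESeq2 on quantile-normalized counts 2 of the 5 were called, and without 6m replicate 3 there were 3. The part of blood in the lower level of Enpp2 was not tested.

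The oligodendrocyte list, which holds the other main source of Enpp2 and Ptgds, had 16 tested genes with 2 higher and 0 lower and a median log2FC of 0.34. Of the 16, 11 had a positive and 5 a negative log2FC. The summed level of the list was 4226 to 5107 CPM at 6m and 5430 to 6236 CPM at 24m, without overlap. The part of oligodendrocytes in the lower level of Enpp2 was not tested. Mbp, which encodes a myelin protein, rose from 1073 to 1770 CPM (log2FC 0.72, edgeR padj = 0.00025), while Trf (-0.03), Apod (0.32) and Qdpr (-0.16) did not pass. By padj alone 7 of the 16 passed, with library totals alone 5 were called, and without 6m replicate 3 or 24m replicate 1 there were 4.

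The list of meningeal and stromal fibroblasts, another source of Ptgds, Igf2 and Igfbp2, had 13 tested genes with none changed and a median of 0.01. Its summed level overlapped between the ages, at 240.2 to 285.6 CPM and 216.3 to 275.9 CPM. Mgp, matrix Gla protein, had a log2FC of -0.52 (edgeR padj = 0.012), under the fold minimum, and the others named by the rule were Slc6a13 (0.16) and Serping1 (-0.20). The ependymal list had 7 tested genes with none changed and a median of -0.21, with Foxj1 at 0.27, Rarres2 at -0.21 and Mia at -0.13. The list of endothelium and mural cells had 7 tested genes with none changed and a median of -0.45, the lowest of the lists after blood, with Ly6c1 at -0.578, just short of the fold minimum (padj = 0.015), Vtn at -0.40 and Itm2a at 0.06. In 5 of the 8 fits without 1 library (6m replicate 2 or 3, or 24m replicate 1, 3 or 4) this list had 1 changed gene.

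The astrocyte list, with 10 tested genes, had 4 higher and 2 lower and a median of 0.34. Gfap (log2FC 1.94, edgeR padj = 5.03e-08), Slc1a3 (1.65), Gja1 (1.415) and Atp1b2 rose, Slc7a10 (-0.94) and Slc1a2 (-0.595) fell, and Aldoc (-0.13), Clu (-0.155) and Ndrg2 (0.32) did not pass. The share of higher calls over all genes was 71.2% with TMM and 84.5% with library totals alone. That scaling moved the median log2FC of all genes to 0.10, and relative to it the members had -0.11 (Ttr), -0.45 (Enpp2), -0.83 (Folr1), -0.36 (Igfbp2) and -0.13 (Ptgds).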

How the data were processed

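Direct RNA libraries of brain hemispheres, 4 of each age, were analysed. The deposited table gives raw counts: the authors mapped MinION reads to GRCm39 with minimap2 2.24 and assigned them to Ensembl genes with featureCounts. Strand and multi-mapping settings are not given in the sources used here. The labels name a cDNA library kit, and the methods, which describe direct RNA, were followed. The 8 columns were assigned to mice by their titles. Each mouse gave 1 library. Symbols, positions and transcripts come from GENCODE vM39, which uses the same build.

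The filter was a mean count over 5, and tests ran in R 4.3.3 with edgeR 4.0.16 (quasi-likelihood test, TMM, full library totals, age as the only term) and Benjamini-Hochberg adjustment over all 9375. Changed genes had padj no higher than 0.05 and log2FC of 0.58 or more in size. CPM use the TMM-scaled totals. Intervals are at a level of 95 percent. Correlations used log2 CPM with a prior count of 2 and exact permutation over pairings, and ratios to Ttr had 0.5 added to both counts. In the alternatives with each age centred, pairings were permuted within ages. Alternatives included DESeq2 1.42.0 on raw counts and on counts quantile-normalized with limma 3.58.1, other scalings and filters, a replicate block and leaving out each library. The edgeR and DESeq2 tests between the ages were run on simulated counts, and the permutation tests were not. Correlations ran in Python 3.11.15 with numpy 2.4.6 and pandas 2.3.3. Copies were searched among annotated transcripts with BLAST+ 2.17.0. Only Igf2 had one.

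The members, gene lists and tests were chosen with earlier results of these data known. Named genes are the 8 members, up to 6 changed genes per list with the smallest padj, up to 3 unchanged genes per list with the highest CPM, and the 10 genes most like Ttr by r in each of 2 measures (mean count of at least 20). A few of the genes so selected are left out of the text. The epithelial markers of the opening and the list without 3 abundant genes were picked with their values in view. The listed genes Pifo, H19, Akr1b3 and Clic2 were not matched to a row and were not analysed here.

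Samples with the same replicate number did not deviate together: the correlation of their deviations from the age means over tested genes was 0.07, -0.01, 0.01 and -0.16 for numbers 1 to 4.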

Additional observations from a re-analysis of the deposited data

Results flagged for a closer look

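In 50 groups of 4 libraries (levels of the members, their ratios to Ttr, list sums and library totals), 4 held a library farther from the others than Dixon's critical value allows, and chance alone flags about 1 group in 20. The total of 6m replicate 2 was 573152 counts, against 818963 to 843706 in the other 6m libraries. The summed ependymal markers of 24m replicate 1 were at 149.4 CPM, against 110.5 to 112.3 CPM in the other 24m libraries, and this library was also the highest in Ttr, at 4304 CPM. The thyroid hormone and retinoid transport list added up to 1524 CPM in 6m replicate 2, against 1435 to 1450 CPM in the other 6m libraries. The folate list added up to 363.1 CPM in 6m replicate 1, against 314.6 to 322.7 CPM, and this library was also the highest in Folr1, at 39.4 CPM. No level of a tested member was set apart in this way.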

How the results depend on the processing

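Under 8 alternatives of scaling, test, filter, threshold and block, and 8 that left out 1 library each, Enpp2, Folr1 and Igfbp2 kept a negative log2FC. The alternative of threshold reuses the main fit, so its log2FC could not differ. DESeq2 on quantile-normalized counts turned the log2FC of Ttr to 0.146 and of Ptgds to 0.153, and it called 819 genes in all, DESeq2 on raw counts 834 and edgeR 1359. Folr1 was called with no filter (-0.82, padj = 0.035), so that 1 member was changed there, and Enpp2 with padj alone (-0.46), again 1 member, with 2038 genes past padj in all. The replicate block, with numbers that do not pair the mice, called 1 member, Folr1 (-0.80, edgeR padj = 0.045), and 1308 genes, and changed no other call of a member. Without 1 library, the log2FC ranged from -0.269 to 0.047 for Ttr, from -0.54 to -0.37 for Enpp2, from -1.10 to -0.54 for Folr1, from -0.45 to -0.26 for Igfbp2 and from -0.17 to -0.075 for Ptgds, with 0 to 1 members and 989 to 1594 genes changed. The cause of these shifts was not tested.

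No pair of members passed without the 2 libraries farthest from the median (0 of 24, since 4 pairs with Igf2 had no r) or with each age centred (0 of 28), where a lone pair could not reach padj under 0.067 and 0.097. The r turned to -0.18 for Ttr and Ptgds and to -0.17 for Enpp2 and Folr1 without 2 libraries, and to -0.091 for Enpp2 and Ptgds with each age centred. The difference in the ratio of Ptgds turned to -0.27 against the whole epithelium list, where Atp1b1 held the most counts, and ranged from -0.13 to 0.17 without 1 library. Ratios passed for 0 members in each alternative. With 1 library left out this was fixed in advance, since the smallest possible exact permutation p was 0.057. With all 8 libraries the smallest possible p nearly fixes it. Depth limits Clic6, Aqp1 and Igf2, which had 0 to 5 counts per library, and the p-values rest on 4 mice per age.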
